A study of Mus musculus with 10 samples.

Results

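The cells described here were endothelial cells of inguinal white adipose tissue (iWAT), 820 of the 10914 cells in the single-cell table. They were selected on measured values. A cell was a member when 9 endothelial genes (Kdr, Btnl9, Ptprb, Cdh5, Gpihbp1, Rasip1, Flt1, Aqp1 and Aqp7) together gave at least 2 unique molecular identifiers (UMIs, 1 per captured molecule), when that sum exceeded the sum over 6 mural genes (Rgs5, Myh11, Acta2, Myl9, Notch3 and Abcc9), and when 5 stromal genes (Dcn, Col1a1, Col1a2, Col3a1 and Lum) held under 3% of its UMIs. Of the 820 members, 664 came from the Bbs8 KO (Bbs8-/-) and 156 from the Bbs8 WT (Bbs8+/+).

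The study took the stromal vascular fraction (SVF), the cells that remain when digested fat is freed of its adipocytes, from lean mice aged 7 weeks and read it with Seq-Well S3, which pairs cells with barcoded beads in small wells. BBS8 is a subunit of the BBSome, a complex that carries proteins into and out of the primary cilium. The KO lacks it in every cell of the body, so nothing measured here can be assigned to loss within endothelial cells. The series text names 1 mouse per genotype and no sort or gate for endothelial cells. The 10 barcode sets of the table, 5 per genotype, were therefore treated as technical. Their ranges are given, and no test, SD or p-value was taken over them or over cells. Intervals below are 95% intervals that cover counting error only.

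Capillary endothelial cells line the smallest vessels, and in adipose tissue they are the gate through which fatty acids pass from blood to adipocytes. GPIHBP1 holds lipoprotein lipase on their luminal face, CD36 takes up the fatty acids released there, and FABP4 binds them inside the cell. Venous, arterial and lymphatic endothelium share the general endothelial genes and differ in markers such as Vwf (veins), Efnb2 (arteries) and Prox1 (lymphatics).

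Many endothelial genes carry binding sites for ETS transcription factors, whose core is GGAA (TTCC when read on the other strand). The promoters of 3 of the genes that chose the cells, and that of Cd36, whose level is described below, are shown to let these letters be seen. Each is the stretch of 200 bases before a RefSeq start (GRCm38.p6), 5' to 3' on the strand of the gene, with GGAA and TTCC in capitals. Kdr lies at chr5:75978456-75978655, Flt1 at chr5:147726012-147726211, Btnl9 at chr11:49187090-49187289 and Cd36 at chr5:17835897-17836096, all on the minus strand. The Cd36 start is 1 of several and sits inside the annotated gene (chr5:17781690-17888801).
Kdr: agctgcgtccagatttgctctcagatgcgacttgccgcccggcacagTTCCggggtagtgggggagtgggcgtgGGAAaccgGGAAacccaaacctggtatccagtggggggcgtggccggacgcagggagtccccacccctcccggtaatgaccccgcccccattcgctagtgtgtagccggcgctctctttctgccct
Flt1: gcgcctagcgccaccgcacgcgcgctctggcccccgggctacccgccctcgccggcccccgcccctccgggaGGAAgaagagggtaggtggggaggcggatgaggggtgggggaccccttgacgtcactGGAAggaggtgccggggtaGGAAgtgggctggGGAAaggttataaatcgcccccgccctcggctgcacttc
Btnl9: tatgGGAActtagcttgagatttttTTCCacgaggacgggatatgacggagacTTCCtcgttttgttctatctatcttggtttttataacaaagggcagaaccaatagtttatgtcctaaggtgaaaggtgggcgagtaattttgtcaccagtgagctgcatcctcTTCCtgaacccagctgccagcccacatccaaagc
Cd36: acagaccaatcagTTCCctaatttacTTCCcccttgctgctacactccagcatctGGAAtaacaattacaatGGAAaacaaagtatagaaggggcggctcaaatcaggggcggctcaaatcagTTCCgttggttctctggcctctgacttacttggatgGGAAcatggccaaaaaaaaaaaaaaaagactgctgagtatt

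Kdr held 3 such cores, Flt1 4, Btnl9 4 and Cd36 6. Of other genes outside the selection, Mgll held 2, Egfl7 4 and Tie1 4. Of the 9 genes that chose the cells, 6 were in the promoter table, and these held 3 or 4 cores each. Over the 27025 symbols of the table the median was 2, with 3 or more cores in 40.9% of promoters, 4 or more in 21.6% and 6 or more in 3.89%. A match of letters is a description and not a bound site.

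The members varied widely in how much endothelial RNA they held. The marker sum was exactly 2 in 243 members, 3 in 155 and at least 4 in 422, with a median of 4 and a maximum of 47. Just outside the limit lay 695 cells with a sum of 1 that met the other limits. The stromal limit kept out 112 cells and the mural limit 32. The highest stromal share inside was 2.97% and the lowest share among cells kept out was 3.01%.

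Endothelial genes that the selection did not use gave a check on the name. Of these, 10 were summed, among them Pecam1 (the adhesion molecule CD31), Cldn5 (a tight junction claudin), Egfl7 (a secreted endothelial factor) and Eng (endoglin, a coreceptor for BMP9). At least 1 of their UMIs was present in 61.6% of members (58.2 to 64.9), at a median depth of 295 UMIs per cell. The share was 7.80% (6.66 to 9.07) in lymphocytes at a median of 314 UMIs, of which Pecam1, a gene that lymphocytes also express, was seen in 4.03%, and 34.9% in mural cells. Their summed level was 2230 CPM (UMIs of the genes scaled to a common library total, in parts per 1e6) in members with a marker sum of 2, 3021 with 3 and 6122 with 4 or more, against 999 in the cells just outside and 328 in cells without a marker UMI. The lower the sum, the weaker was this independent signal, and members with a sum of 2 stood between clear endothelial cells and the rest. KO members carried a lower median sum than WT members, 3 against 4.5. The name endothelial therefore held for the members as a group, and less firmly for those near the limit. The word capillary was not exclusive, since the selection did not remove venous, arterial or lymphatic cells.

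Depth was shallow. Members had a median of 309 UMIs and 203 genes in the KO and of 264.5 UMIs and 155 genes in the WT, and their totals were 278828 and 50951 UMIs. A count of 0 thus allows up to 10.8 CPM in KO members and 58.9 CPM in WT members. Mitochondrial UMIs averaged 8.43% in the KO and 10.7% in the WT. Ttc8, the gene of BBS8, gave 0 UMIs in all KO cells and 5 in all WT cells, all from set WT4_p2, and 0 in members of either genotype, so it could not be checked within endothelial cells. Of the members' barcodes, 10 occurred in more than 1 set, 3 in at least 4 sets, and 6 were shared by a pair of members.

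Endothelial cells made up a like share of the SVF in both genotypes. The share was 7.39% (6.86 to 7.95) of 8985 KO cells and 8.09% (6.91 to 9.39) of 1929 WT cells, a difference of -0.70 percentage points with an interval from -2.11 to 0.61. The KO sets gave 6.51%, 6.21%, 8.08%, 7.29% and 8.81%. The WT sets gave 9.96%, 8.73%, 11.2%, 6.77% and 7.10%. The ranges overlapped. After each cell was thinned to 200 UMIs the share was 5.79% of 6266 KO cells and 6.54% of 1544 WT cells, with 2719 and 385 shallower cells left out. The direction of this small difference turned when lymphocytes, far more frequent in the KO, were left out of the denominator (0.96 points higher in the KO), when cells with at least 200 genes alone were counted (3.46 points higher) and without members that held a venous UMI (0.26 points higher). The difference widened to -1.32 points with at least 3 marker UMIs, -1.55 with stromal UMIs under 1% and -1.59 without cells with immune UMIs. Sets whose code carried the number 5 held 6.36% endothelial cells and those with 6 held 8.02%, while the WT numbers 3 and 4 gave 9.77% and 6.88%, so the sets within a genotype differed by more than the genotypes.

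**Figure D1:**
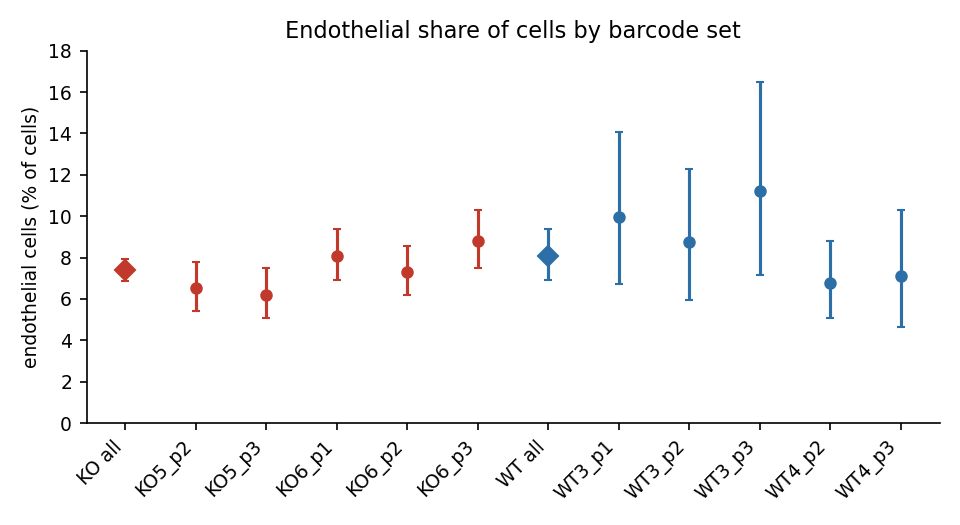
Endothelial cells as percent of all cells (y axis) for each genotype (diamonds) and each of its 5 barcode sets (circles), KO in red and WT in blue, with exact 95% binomial intervals. The KO sets lie between 6.21% and 8.81% and the WT sets between 6.77% and 11.2%, and the ranges overlap.

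The genes highest in the members relative to all other cells are given next. Apart from the genes of the selection, 351 genes reached 250 CPM in members of both genotypes, and the 20 with the highest ratio to other cells were Mgll, Plvap, Cavin2, Cd93, 8430408G22Rik, Mmrn2, Cd36, Adgrl4, Cd300lg, Adgrf5, Ushbp1, Rbp7, C130074G19Rik, Esam, Pkp4, Epas1, Egfl7, Fabp4, Scarb1 and C1qtnf9. These are description only, since cells chosen by endothelial genes must differ from the rest. Mgll, the lipase that splits monoglycerides, led with a mean log2 ratio of 4.13, against a median of 0.26 over the 351 genes. Plvap (3.78) and Cavin2 (3.75) came next, and Cd36 and Fabp4 stood further down the 20 at 3.60 and 3.29. Besides lipid genes the 20 held genes of the endothelial surface: Plvap, which forms the diaphragms of fenestrae and caveolae, Cd93 and Mmrn2, which bind each other at the endothelial matrix, and Adgrf5 and Adgrl4, which are adhesion receptors of endothelium. Epas1, the hypoxia factor HIF-2 alpha, was also among them.

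The 9 genes of the selection are given without reading a difference from them. Kdr and Flt1, the VEGF receptors 2 and 1, stood at 1628 and 1754 CPM in KO members and at 1472 and 1708 CPM in WT members. Cdh5, the cadherin of endothelial junctions, was at 1370 and 1354 CPM, Btnl9 at 1029 and 962 CPM, and Ptprb, the phosphatase that acts on TIE2, at 2546 and 3042 CPM. Rasip1, which controls the vascular lumen, was at 409 and 451 CPM, and Aqp7, the glycerol channel, at 308 and 216 CPM. Aqp1, a water channel, was at 3690 and 5888 CPM (2952 to 5106 over the KO sets and 4527 to 7900 over the WT sets). Gpihbp1 was at 1994 and 1433 CPM (1633 to 2370 and 777 to 1814).

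Fabp4 and Cd36 were lower in KO endothelial cells. Fabp4 stood at 8967, 6681, 7065, 9725 and 6571 CPM in the KO sets and at 9903, 14116, 14630, 12961 and 15494 CPM in the WT sets. Every KO set lay below every WT set, and the summed levels of 7779 and 13071 CPM gave a log2 ratio of -0.75 (-0.88 to -0.62). Cd36 showed the same order, with 5277, 4714, 5166, 5912 and 4496 CPM in the KO sets and 7734, 7382, 9323, 7788 and 11295 CPM in the WT sets. Its summed levels of 5118 and 8400 CPM gave a log2 ratio of -0.71 (-0.87 to -0.56). Neither gene reached a 2-fold difference. Of the 476 genes with a mean of at least 250 CPM over the genotypes, 4.20% had every KO set below every WT set and 2.31% the reverse.

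The share of cells with a UMI was lower in the KO for both genes, with some overlap. Fabp4 was detected in 71.7% (68.1 to 75.1) of KO members and 82.7% (75.8 to 88.3) of WT members, although the KO cells were deeper, and its set shares overlapped, at 65.4 to 80.1% in the KO and 77.3 to 89.3% in the WT. Cd36 was detected in 59.8% (55.9 to 63.5) and 69.9% (62.0 to 77.0), with overlapping intervals. In lymphocytes the shares were 11.3% for Fabp4 and 6.49% for Cd36. With every cell thinned to 200 UMIs, which left out 154 KO and 35 WT members, Fabp4 was found in 57.3% and 78.5% and Cd36 in 47.8% and 63.6%. Neither gene was seen in 19.0% (16.1 to 22.2) of KO members and 10.3% (5.98 to 16.1) of WT members.

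**Figure D2:**
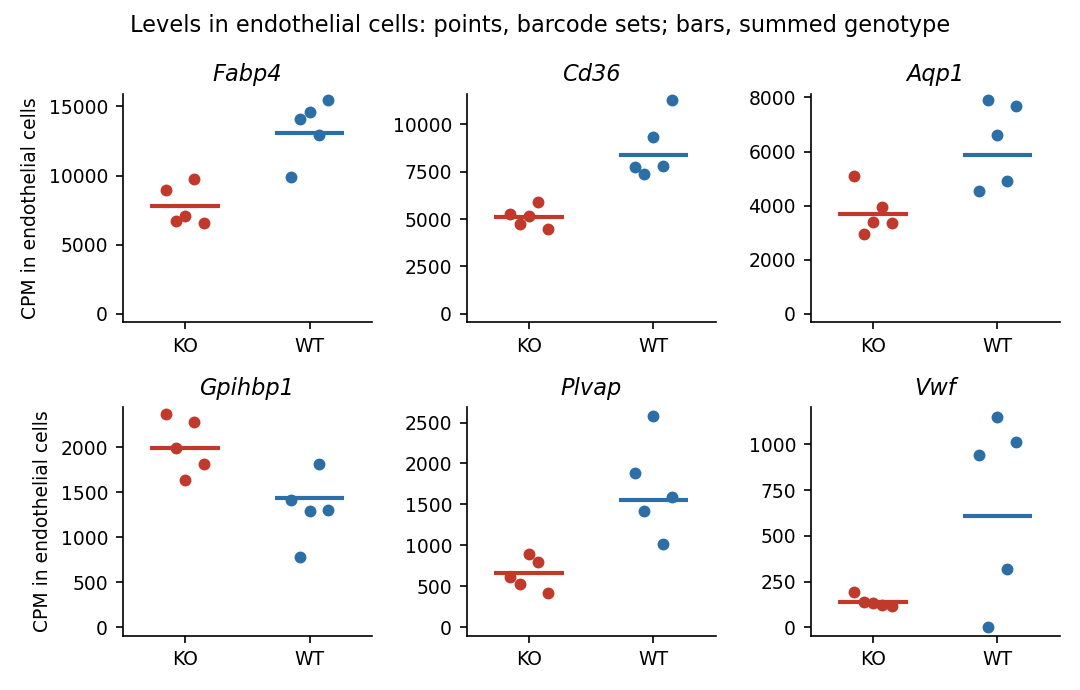
CPM in endothelial cells (y axes, linear) for 6 genes, with 1 point per barcode set and a bar at the level of the summed genotype, KO in red and WT in blue. For Fabp4, Cd36 and Plvap every KO point lies below every WT point, for Aqp1, Gpihbp1 and Vwf the points overlap, and Aqp1 and Gpihbp1 were used to choose the cells.

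Since more KO members lay near the selection limit, both genes are given by class of the marker sum, the value that chose the cells, as a description. The classes did not match the genotypes, since the class of 4 or more ran up to 47 and its median depth was 405 UMIs in the KO and 320 in the WT. Among members with a sum of 4 or more, Fabp4 was at 10311 CPM (9840 to 10799) in the KO and 15224 CPM (13954 to 16578) in the WT, and Cd36 at 6786 CPM (6405 to 7184) and 10734 CPM (9673 to 11881). In the same cells the 22 pan-endothelial genes were at 10989 CPM in the KO and 10101 CPM in the WT. With a sum of 2 these were at 3800 CPM (3338 to 4307) and 5897 CPM (4333 to 7842), and with a sum of 3 at 4700 CPM (4055 to 5417) and 5952 CPM (4403 to 7868), where the intervals overlapped. With a sum of 2, Fabp4 was at 2601 and 7277 CPM and Cd36 at 1822 CPM (1507 to 2184) and 3262 CPM (2131 to 4780), whose intervals just overlapped. With a sum of 3, Fabp4 was at 5095 and 9596 CPM, while Cd36 was at 3166 CPM (2641 to 3764) and 3522 CPM (2359 to 5059) with overlapping intervals. The lymphocyte list moved the other way, at 993 CPM in the KO and 144 CPM in the WT among members with a sum of 4 or more, and its part in the lipid gene levels was not tested. Without members that held at least 2 UMIs of lymphocyte or of macrophage genes, the log2 ratio was -0.55 for Fabp4 and -0.56 for Cd36.

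**Figure D3:**
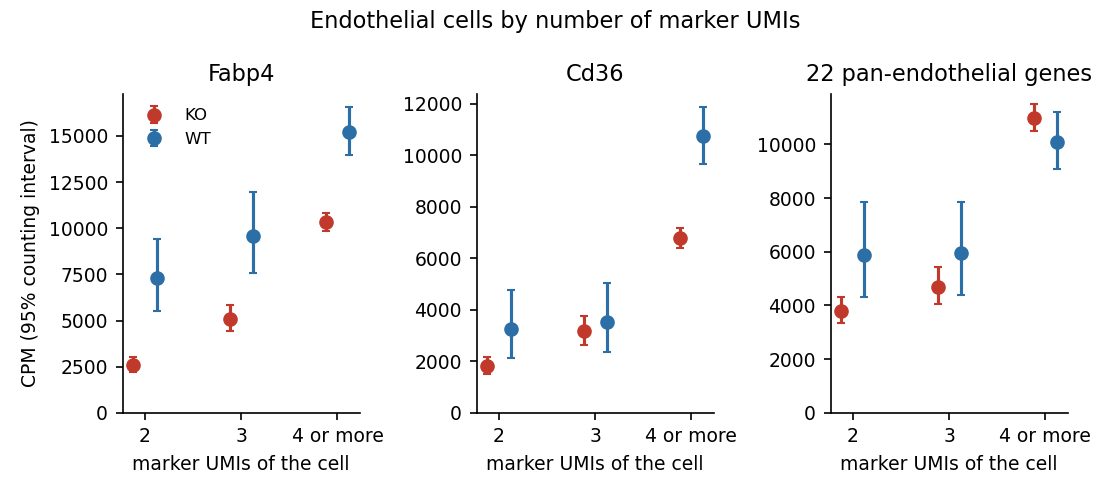
CPM (y axes, linear, with exact 95% Poisson intervals) of Fabp4, Cd36 and the sum of 22 pan-endothelial genes in members with 2, 3 or at least 4 UMIs of the marker genes (x axis), KO in red and WT in blue. Fabp4 lies lower in the KO in all 3 classes, and the pan-endothelial sum is 3800 and 5897 CPM at 2 UMIs, 4700 and 5952 CPM at 3 and 10989 and 10101 CPM at 4 or more in KO and WT, with overlapping intervals at 3 and at 4 or more.

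These 2 genes gave most of the UMIs of the wider lipid handling list. The list held 26 genes of fatty acid uptake, binding, activation and storage and of their control, of which 9 passed the filter on low values. None was called at 2-fold in either direction, against 2.94% of all 476 tested genes called higher and 4.83% called lower. Of the 9, 7 had a ratio below 0 and 2 above, and their median of -0.42 compares with -0.16 over all tested genes. The summed list was at 20701 CPM in the KO and 29617 CPM in the WT, a log2 ratio of -0.52 (-0.60 to -0.43), and its set ranges of 17017 to 24683 and 23861 to 35476 CPM overlapped. Fabp4 and Cd36 supplied 62.3% of the list's UMIs in the KO and 72.5% in the WT. Without them the remaining 24 genes stood at 7804 and 8145 CPM, or in log2 terms -0.06 (-0.21 to 0.09).

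Among those remaining genes, Mgll was at 2453 CPM in the KO and 2139 CPM in the WT, and Rbp7, a retinol binding protein of white fat endothelium, at 1388 and 1865 CPM. Angptl4, an inhibitor of lipoprotein lipase, was at 707 and 981 CPM, and Lpl, the lipase itself, at 768 and 903 CPM. Fabp5, another fatty acid binding protein, was at 197 and 353 CPM and had the lowest ratio of the tested lipid genes (-0.78, from -1.63 to 0.02). Scarb1, the receptor for high density lipoprotein, was at 391 and 412 CPM, and Cd300lg at 692 and 648 CPM. Of these, the counting interval excluded 0 for Rbp7 alone (-0.42, from -0.75 to -0.09). Pparg, the nuclear receptor that drives Fabp4 and Cd36 transcription, gave 34 and 8 UMIs, too few to compare. Apold1, an endothelial early response gene, gave 47 UMIs in the KO and 0 in the WT and did not pass the filter on low values. Its KO level of 169 CPM was 2.86-fold that of the 3 counts that a total of 0 allows over the WT members. This fold leaves out the counting error of the 47 UMIs.

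The 2 genes were also read in other cells of the SVF. Fabp4 was at 971 CPM in KO and 1092 CPM in WT stromal cells and at 3161 and 3500 CPM in mural cells. Cd36 was at 423 and 461 CPM in stromal cells and at 1707 and 1452 CPM in mural cells. In lymphocytes Fabp4 was at 395 CPM in the KO and 907 CPM in the WT, from 308 and 45 UMIs, and Cd36 at 205 and 282 CPM. Fabp4 was thus lower in KO lymphocytes too, by a wider ratio than in endothelial cells. The whole lipid handling list had a log2 ratio of -0.37 (-0.44 to -0.30) in stromal cells, 0.08 (-0.17 to 0.33) in mural cells and -0.36 (-0.67 to -0.04) in lymphocytes. Whether the endothelial difference exceeds these was not tested. The capillary list of 14 genes, which shares Fabp4 and Cd36, was at -0.52 (-0.61 to -0.44), and at -0.11 (-0.26 to 0.04) without them, with 1 of 10 tested genes higher (Rgcc) and 1 lower (Plvap), against 2.94% and 4.83% of all tested genes. In lymphocytes the capillary list was at -0.74 (-1.05 to -0.41).

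Markers of vessel type differed in opposite directions. A UMI of the 7 venous markers (Vwf, Ackr1, Selp, Sele, Nr2f2, Lrg1 and Ephb4, with Sele not in the table) was present in 12.3% (9.94 to 15.1) of KO members and 23.1% (16.7 to 30.5) of WT members, against 0.705% of lymphocytes. A UMI of 7 arterial markers (Gja4, Gja5, Sox17, Hey1, Efnb2, Sema3g and Fbln5) was present in 17.3% (14.5 to 20.4) of KO members and 7.05% (3.57 to 12.3) of WT members, against 1.71% of lymphocytes. These 7 leave out Cxcl12, which gave 435 of the 715 UMIs of the summed arterial list in the KO and 71 of 99 in the WT. Cxcl12 was present in 28.6% of KO members and 27.6% of WT members. Thinning to 200 UMIs gave 6.27% and 18.2% for the venous and 11.8% and 5.79% for the arterial markers, the latter with overlapping intervals (9.10 to 14.9 and 2.36 to 11.6). Lymphatic markers were at 4.97% (3.45 to 6.91) in the KO and 2.56% (0.70 to 6.43) in the WT, against 2.32% (1.70 to 3.08) of lymphocytes. The summed lymphatic list was at 190 CPM in KO members and at 183 CPM in all other cells. Lyve1, which macrophages also express, gave 32 of the list's 53 UMIs in KO members, at 115 CPM against 142 CPM in all other cells. The KO share thus lay above that of lymphocytes, while the summed level was near that of all other cells. Whether lymphatic cells were among the members was not tested. Most members carried neither a venous nor an arterial UMI, 73.0% in the KO and 71.2% in the WT.

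The venous difference was uneven over the sets. The KO sets gave 11.5%, 11.5%, 12.3%, 8.51% and 17.4%, and the WT sets 35.7%, 6.90%, 31.8%, 23.1% and 20%, with set WT3_p2 below all KO sets. The arterial shares were 13.3%, 23.1%, 16.7%, 19.9% and 14.6% in the KO sets and 3.57%, 6.90%, 4.55%, 11.5% and 4% in the WT sets, with no overlap but with only 11 positive cells in the WT. Sets with the code numbers 3 and 4 of the WT gave venous shares of 24.1% and 22.1%, and those with 5 and 6 of the KO gave 11.5% and 12.8%.

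**Figure D4:**
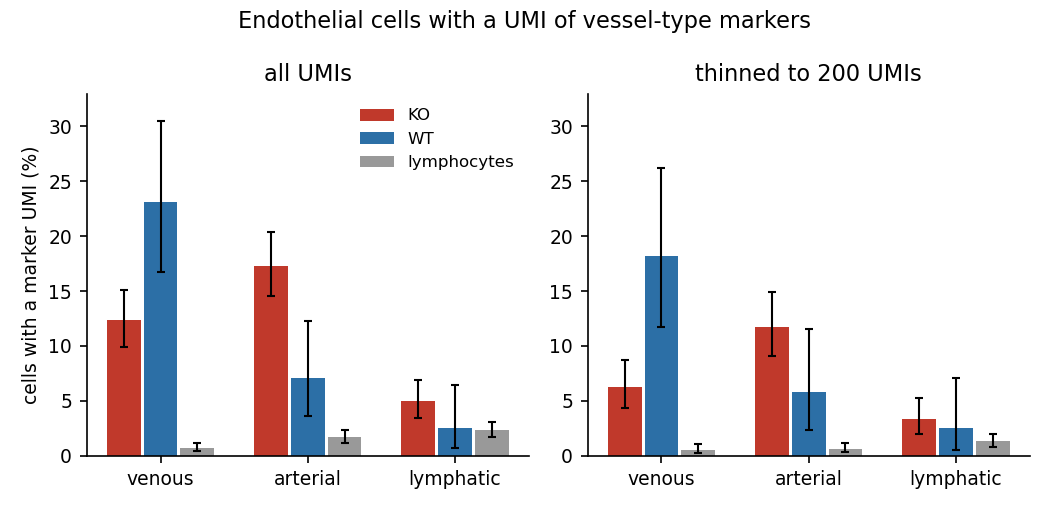
Percent of cells (y axis) with at least 1 UMI of venous, arterial or lymphatic markers among KO members (red), WT members (blue) and lymphocytes (grey), with exact 95% binomial intervals, from all UMIs (left) and after thinning to 200 UMIs per cell (right). Venous markers lie lower and arterial markers higher in the KO in both panels, and the thinned arterial intervals of KO and WT overlap.

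Vwf, the von Willebrand factor stored by venous and other large vessel endothelium, held 20.4% of the venous list's UMIs in the KO and 33.3% in the WT. It was at 195, 137, 133, 123 and 115 CPM in the KO sets and at 943, 0, 1147, 320 and 1014 CPM in the WT sets, where set WT3_p2 had no UMI of it. The sums, 38 and 31 UMIs, gave 136 CPM and 608 CPM and a log2 ratio of -2.01 (-2.88 to -1.43). Without Vwf the 9 other genes of the venous list were at 531 and 1217 CPM, or in log2 terms -1.20 (-1.63 to -0.75). Nr2f2, the transcription factor of venous identity, was at 89.7 and 255 CPM, and Ephb4, the venous ephrin receptor, at 78.9 and 196 CPM. On the arterial side Efnb2, the ephrin ligand of arteries, gave 39 UMIs in the KO and 0 in the WT and did not pass the filter on low values. Its KO level was 2.38-fold that of the 3 counts that a total of 0 allows in the WT, without the counting error of the 39 UMIs. Fbln5, an elastic fibre protein, was at 251 and 137 CPM. Cxcl12, at 1560 and 1394 CPM, and Sema3g, at 230 and 236 CPM, were nearly level. The summed arterial list had a log2 ratio of 0.40 (0.10 to 0.72) with overlapping set ranges. The same list was also higher in KO mural cells (1.30, from 0.63 to 2.02) and in KO lymphocytes (2.87, from 0.37 to 8.19), and lower in KO stromal cells (-0.50, from -0.71 to -0.28).

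Plvap was lower in the KO in every set. Its levels were 611, 526, 900, 803 and 418 CPM in the KO sets and 1886, 1424, 2582, 1013 and 1593 CPM in the WT sets. The sums of 656 and 1550 CPM gave a log2 ratio of -1.22 (-1.63 to -0.84). The gene was detected in 12.8% (10.4 to 15.6) of KO members and 28.2% (21.3 to 36.0) of WT members, against 0.705% of lymphocytes, and in 7.45% and 24.0% after thinning. The ratio fell short of 2-fold in cells with at least 200 genes (-0.89) and without members with immune UMIs (-0.96).

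Lipid genes were also read by venous detection, a split that follows depth, with medians of 511 and 454.5 UMIs in venous-positive and 293.5 and 240 UMIs in the other members of KO and WT. Among members without a venous UMI, 582 in the KO and 120 in the WT, Fabp4 was at 7461 and 13243 CPM and Cd36 at 4852 and 9261 CPM. Plvap kept a log2 ratio of -1.11 in these cells. Among venous-positive members, 82 and 36, Cd36 was at 6278 CPM (5615 to 6998) and 6687 CPM (5516 to 8034) with overlapping intervals, and Fabp4 at 9167 and 12730 CPM. Whether the ratios differ between these members was not tested.

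Across all genes few passed 2-fold. Of the 476 tested genes, which include the 9 of the selection, 14 were at least 2-fold higher in the KO (2.94%) and 23 at least 2-fold lower (4.83%), on log2 ratios with 20 CPM added to each level. The tested genes also include some of the selection's stromal and mural limits, such as Rgs5 and Col1a1, the latter among the 14. Every KO set lay above every WT set for 8 of the 14 and below for 7 of the 23, genes already picked for their ratio, against 2.31% and 4.20% of all tested genes. The median over the tested genes was -0.16, and scaling by TMM (trimmed mean of M values) moved it by 0.14 and turned the split into 24 higher and 14 lower. Without set WT4_p2, which held 52 of the 156 WT members, the counts were 25 and 41.

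The 12 highest genes were Igkc, Col1a1, Lgals1, Ets2, Rgcc, H2-Ab1, mt-Nd5, Clic5, Ighm, Rplp0, Slc6a6 and Rps20. Igkc and Ighm, the immunoglobulin chains of B cells, had log2 ratios of 2.56 and 1.20. Igkc was at 3.69 without set WT3_p1, and Ighm fell short of 2-fold without members with immune UMIs (0.91) and without venous-positive members (0.82). Igkc was also higher in KO than in WT stromal cells (390 and 99.5 CPM) and mural cells (473 CPM and listed at 0). Col1a1, the fibrillar collagen, was at 559 and 118 CPM and belongs to the selection's stromal limit. Of the 12, Rgcc, Clic5, Ets2 and Slc6a6 had levels in members above those of other cells. Rgcc, a regulator of cell cycle progression and a marker of capillaries, was at 684, 503, 500, 617 and 331 CPM in the KO sets and 189, 259, 287, 160 and 145 CPM in the WT sets. These did not overlap, and the log2 ratio was 1.30 (0.47 to 2.48). Clic5, a chloride intracellular channel protein, was at 434 and 177 CPM, Ets2, an ETS factor, at 380 and 137 CPM, and Slc6a6, the taurine transporter, at 362 and 157 CPM, all with overlapping sets. Clic5 fell short of 2-fold without set WT3_p1 (0.90), Slc6a6 without WT3_p1 (0.81) or WT4_p3 (0.92), and Rps20 without WT3_p1 (0.79) or WT3_p2 (0.88). Clic5 (0.81), Slc6a6 (0.87) and Rps20 (0.83) also fell short without venous-positive members. Rplp0, a ribosomal protein gene, fell short with at least 3 (0.95) or 4 marker UMIs (0.80), with at least 3 different marker genes (0.90) and without members with immune UMIs (0.84). Without set WT4_p2 the ratios of Rps20 (2.38), Lgals1 (2.32) and H2-Ab1 (1.86) were wider. With stromal UMIs held under 1% Col1a1 was at 0.89, Lgals1 at 0.88, Rplp0 at 0.79 and Rps20 at 0.68, and in cells with at least 200 genes H2-Ab1 was at 0.58 and Slc6a6 at 0.51.

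The 12 lowest genes were Wfdc18, Vwf, Ptms, Eln, Fbln2, Abcb1a, Prss23, Mfge8, Lifr, Lamb2, Plvap and Arhgap29. Wfdc18, a milk protein of the mammary gland, gave 0 UMIs in the KO and 31 in the WT, from 4.49% of WT members. All 31 came from sets WT3_p1 (20), WT3_p2 (4) and WT3_p3 (7). The WT level was 56.5-fold that of the 3 counts that a total of 0 allows in the KO. The counting interval of the log2 ratio reached up to -5.44. Without set WT3_p1 the fold was 25.3, and without set WT4_p2, which had none, 89.5. These folds leave out the counting error of the WT UMIs. Eln, the elastin gene, was at 136 and 530 CPM (log2 ratio -1.82, from -2.71 to -1.19) and Fbln2, a fibulin that binds it, at 179 and 648 CPM (-1.74, from -2.52 to -1.17), both with separate sets. Abcb1a, a drug efflux pump of endothelium, was at 115 and 412 CPM. Mfge8, a lactadherin, was at 265 and 687 CPM, Lifr, a cytokine receptor, at 165 and 432 CPM, Lamb2, the laminin beta 2 chain, at 251 and 628 CPM, and Arhgap29, which acts on RhoA downstream of RASIP1, at 247 and 589 CPM. Ptms and Prss23 were at 111 and 471 CPM and at 165 and 451 CPM. Mfge8, which was higher in mural cells (845 and 1489 CPM) than in members, fell short of 2-fold without set WT3_p1 (-0.92), without venous-positive members (-0.72) and without members that held a mammary UMI (-0.62). Arhgap29 did so without set WT4_p2 (-0.86) and without venous-positive members (-0.94), and Prss23 without venous-positive members (-0.82). Lifr fell short with at least 4 marker UMIs (-0.98). Wfdc18 was at 0 in both genotypes among members with at least 3 different marker genes, and Fbln2 was at -0.89 among those with at least 4 marker UMIs.

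**Figure D5:**
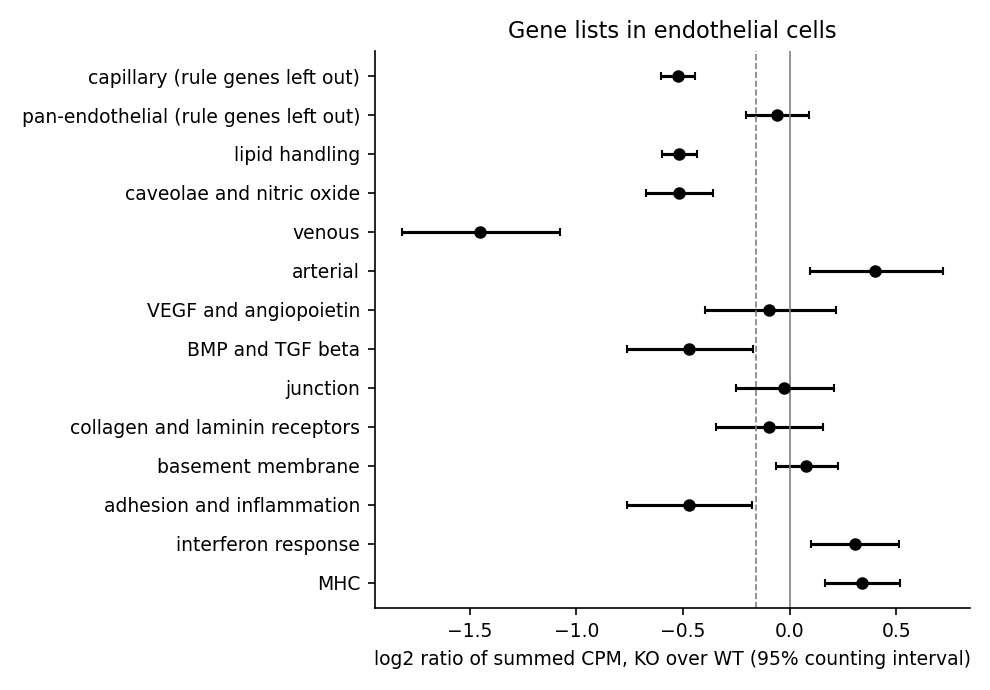
Log2 ratio of summed CPM, KO over WT, in endothelial cells (x axis, points with exact 95% counting intervals) for 14 gene lists, with the median of all tested genes at -0.16 as a dashed line and 0 as a solid line. The venous list lies lowest at -1.45, lipid handling and caveolae lie at -0.52, and the pan-endothelial, junction, receptor and basement membrane intervals include 0.

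The general endothelial list was near level. The 22 pan-endothelial genes were at 8421 CPM (7262 to 9284 over the sets) in the KO and 8773 CPM (8108 to 10860) in the WT, a log2 ratio of -0.06 (-0.21 to 0.09). Of 13 tested, 0 were higher and 1, Eng, was lower, against 2.94% and 4.83% of all tested genes. Eng was at 362 and 785 CPM with separate sets (-1.08, from -1.66 to -0.55), and fell short of 2-fold without set KO6_p3 (-0.85) or WT4_p3 (-0.92) and with TMM (-0.94). Pecam1 was at 811 and 1138 CPM. The junction list (-0.03, from -0.25 to 0.21) and the VEGF and angiopoietin list without Kdr and Flt1 (-0.09, from -0.40 to 0.22) had 0 of 7 and 0 of 3 tested genes past 2-fold. Nrp1, the VEGF coreceptor, was at 872 and 903 CPM, and Tek, the angiopoietin receptor TIE2, at 387 and 451 CPM. The flow response list, with Klf2, Klf4 and Nos3, was at -0.21 (-0.58 to 0.18).

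The summed list of caveolae and nitric oxide genes was lower in the KO, led by Cavin1 and Cavin2. It was at 5839 and 8361 CPM, or in log2 terms -0.52 (-0.67 to -0.36), with 0 of 5 tested genes past 2-fold and overlapping set ranges. Cavin1, which builds the caveolar coat, was at 2419, 1762, 1633, 2038 and 1513 CPM in the KO sets and 3678, 3108, 3299, 2507 and 3765 CPM in the WT sets. These did not overlap, and the log2 ratio was -0.76 (-1.03 to -0.50). Cavin1 was also lower in KO stromal cells (1000 and 1460 CPM) and KO lymphocytes (160 and 262 CPM), and higher in KO mural cells (1707 and 1452 CPM). The whole list was at -0.04 (-0.17 to 0.09) in stromal cells, 0.04 (-0.30 to 0.40) in mural cells and 0.05 (-0.52 to 0.68) in lymphocytes. Cavin2 was at 1804 and 2650 CPM (-0.55, from -0.83 to -0.27), whereas Cav1, the caveolin itself, was level at 929 and 942 CPM. Ehd4, a membrane remodelling ATPase of caveolae, was at 377 and 726 CPM with separate sets, and Ednrb, an endothelin receptor, at 373 and 275 CPM. Without Cavin1 the list was at -0.39 (-0.58 to -0.19). The BMP and TGF beta list was at -0.47 (-0.76 to -0.17) with 1 of 3 tested genes lower, Eng, against 4.83% of all tested genes, and at -0.23 (-0.58 to 0.13) without it.

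The summed lists of basement membrane genes and of receptors for collagen and laminin had intervals that included 0. The basement membrane list was at 9454 and 8950 CPM, or in log2 terms 0.08 (-0.07 to 0.23), with 0 of 9 tested genes higher and 1 lower (Lamb2), against 2.94% and 4.83% of all tested genes. Col4a1 and Col4a2, the chains of collagen IV, were at 1607 and 1570 CPM and at 1194 and 1040 CPM, and Sparc, a collagen chaperone, at 3877 and 3278 CPM. The intervals of Lamb2 (-1.26, from -1.95 to -0.67) and Sparc (0.24, from 0.01 to 0.49) excluded 0. The receptor list was at 2934 and 3140 CPM, or in log2 terms -0.10 (-0.34 to 0.16), with 0 of 4 tested genes past 2-fold. Itgb1, the beta 1 integrin, was at 760 and 981 CPM, Itga6, its laminin binding partner, at 606 and 451 CPM, and Itga1, its collagen binding partner, at 455 and 353 CPM.

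Antigen presentation genes were higher in sum. The MHC list was at 7632 and 6025 CPM, or in log2 terms 0.34 (0.17 to 0.52), with 1 of 7 tested genes higher, against 2.94% of all tested genes. That gene was H2-Ab1, of MHC class II, at 1747 and 726 CPM, and without it the list was at 0.15 (-0.04 to 0.34). H2-Ab1 was higher in KO than in WT stromal cells too (1272 and 428 CPM), and its level in lymphocytes was 4046 and 3145 CPM. The whole MHC list was at 1.07 (0.96 to 1.18) in stromal cells, 0.76 (0.45 to 1.07) in mural cells and 0.20 (0.09 to 0.32) in lymphocytes. The class I genes H2-K1 and H2-D1 were at 1370 and 1374 CPM and at 1280 and 1492 CPM. The interferon response list was at 0.31 (0.10 to 0.52) with 0 of 4 tested genes past 2-fold. In other cells this list was at 0.56 (0.46 to 0.67) in stromal cells, 0.005 (-0.35 to 0.37) in mural cells and -0.27 (-0.53 to 0.009) in lymphocytes. The adhesion and inflammation list was at -0.47 (-0.76 to -0.18), of which Selenop, a selenium transport protein, held most, and at -0.02 without it.

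Cilium genes and Hedgehog genes were too sparse to compare. The Hedgehog list gave 25 UMIs in KO members and 1 in WT members, and the list of BBSome and cilium genes 96 and 15, with 0 genes of either past the filter. The cell cycle list gave 77 and 7 UMIs and the lymphatic list 53 and 4, again with 0 genes past the filter. The Notch list gave 155 and 17 UMIs and a log2 ratio of 0.74 (0.01 to 1.55), with 0 genes past the filter, and it was at 1.63 (0.39 to 3.16) in mural cells. The tip cell list was at 0.23 (-0.03 to 0.50) with 0 of 2 tested genes past 2-fold, and the immediate early list, which rises when tissue is dissociated, was at 0.13 (-0.32 to 0.60).

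RNA of other cell types moved with genotype in these members, and its part in the results above was not tested. The 12 lymphocyte genes were at 1506 CPM in the KO (1235 to 2003 over the sets) and 393 CPM in the WT (0 to 587), a log2 ratio of 1.94 (1.30 to 2.67). The ratio was 2.91 in mural and 1.73 in stromal cells, and lymphocytes made up 20.9% of KO cells and 5.75% of WT cells. In WT members Trac, Cd3e and Cd79a were at 0 UMIs. The immunoglobulin list (5 of 6 genes detected) was at 1395 and 353 CPM. The stromal list of 10 genes was at 8059 CPM (5448 to 10043) and 5653 CPM (3442 to 7948), and the mural list of 11 genes at 929 CPM (709 to 1350) and 1747 CPM (1334 to 2169). Both lists hold genes that the selection limited, such as Dcn and Col1a1 or Rgs5 and Myh11, so these levels are description only. Macrophage genes were at 2048 and 2532 CPM and adipocyte genes at 430 and 78.5 CPM, with Adipoq and Plin1 at 3 and 2 UMIs in the KO and at 0 in the WT. Mammary epithelium genes were at 21.5 CPM in the KO (0 to 48.9) and 1295 CPM in the WT (107 to 3867), and erythroid genes at 455 CPM (133 to 1857) and 177 CPM (94.3 to 267). Without members that held a mammary UMI, the log2 ratios were -0.80 for Fabp4, -0.79 for Cd36 and -1.31 for Plvap.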

How the data were processed

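The authors deposited 1 table of UMI counts, unscaled whole numbers, for 14623 genes and 10914 cells. According to the study's methods, the authors demultiplexed with bcl2fastq (version 2.20), aligned to mm10 with STAR, evened out depth between batches and kept cells with 100 to 1000 genes and at most 20% mitochondrial reads. The sources used here do not say if that evening of depth preceded the deposited table; if it did, deep sets lost counts. Genotype came from the column name. No code of a barcode set names 1 labelled sample, so sets served as technical subsets. The members and gene lists were chosen with earlier results of these data known.

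UMIs of the members were summed per genotype and set, and divided by the sum of all their UMIs (CPM). Log2 ratios of genes used a pseudocount of 20 CPM, which pulls low genes towards 0. Ratios of lists used none, nor did the intervals, which were exact and conditional on the summed count. Genes with a mean of the genotypes of at least 250 CPM are called tested here and were set against a 2-fold limit. With 1 mouse per genotype there is no test across samples. Shares have exact Clopper-Pearson intervals, and their difference an interval combined from these (Newcombe's method). PCR duplicates are collapsed by UMIs, but intervals cover counting error only.

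Named genes were the 12 highest and 12 lowest ratios, the 20 highest ratios to other cells, and list members. The 31 lists covered endothelial, lipid, signalling, matrix and other cell type genes. Stromal cells were those at or above the stromal limit, mural cells had at least 2 mural UMIs, no larger endothelial sum and less stromal RNA, and lymphocytes had at least 2 UMIs of 12 T and B cell genes and were none of these. No doublet caller was run, and members with immune UMIs were kept and left out in an alternative. Gene positions came from GENCODE vM21 and promoters from RefSeq (GRCm38.p6). The ratio and selection steps were tested on simulated data. Python 3.11.15 was used, with edgeR 4.0.16 (TMM) and DESeq2 1.42.0 (size factors) for scaling alternatives on the summed counts. Levels come from 3' ends and are compared within a gene.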

Additional observations from a re-analysis of the deposited data

Results flagged for a closer look

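Over 20 measures and 2 genotypes, 40 groups of 5 barcode sets were screened for 1 set that lay apart, by the gap to its neighbour relative to the whole range. Chance gives about 1 in 20 groups, or 2 here, and 4 were found. Set KO5_p2 had a Vwf level of 195.5 CPM against 115 to 137 CPM in the other KO sets, which left it under the WT level of 608 CPM. Set KO5_p2 also had erythroid genes at 1857 CPM against 133 to 503 CPM, from 3 cells of its 113 members. Set WT3_p3 had the collagen and laminin receptor list at 4590 CPM against 2829 to 3041 CPM in the other WT sets. Set KO5_p3 had the basement membrane list at 11006 CPM against 8796 to 9365 CPM. The cause of these differences between sets was not tested.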

How the results depend on the processing

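Over 32 alternatives, 2505 of 2635 recomputed values of 100 results stayed within the interval, or for counts within 1.5 times, of the reported value. Of all values, 174 from 31 results had the other sign, and for 1 of these the reported interval excluded 0. The limits on marker sum of at least 4 UMIs and on 3 different marker genes, the removal of venous-positive and of mammary-positive members and the scaling per pan-endothelial UMI were chosen after seeing the data. The 14 genes at least 2-fold higher in KO endothelial cells became 23 with stromal UMIs under 1%, 29 in cells with at least 200 genes, 22 without cells with immune UMIs, 109 at a mean of at least 100 CPM, 4 at 500 CPM, 2007 with no filter on low values, 24 with TMM, 23 with DESeq2 size factors and 23 with mitochondrial, Gm42418 and immunoglobulin genes out of the total. Leaving out 1 barcode set gave 15 to 25. The 23 genes at least 2-fold lower in KO endothelial cells became 60 in cells with at least 200 genes, 152 at 100 CPM, 5 at 500 CPM, 627 with no filter, 14 with TMM, 14 with DESeq2 size factors, 52 with those genes out of the total and 39 with at least 3 different marker genes, and 24 to 41 without 1 set. TMM and DESeq2 size factors moved the median of all genes by 0.14 and 0.13. The lipid handling ratio of -0.52 was -0.40 with at least 3 marker UMIs, -0.41 with at least 4, -0.33 with stromal UMIs under 1%, -0.34 without immune UMIs, -0.38 with TMM, -0.39 with DESeq2 size factors, -0.64 without venous-positive members and -0.60 to -0.43 without 1 set. The basement membrane ratio of 0.08 was 0.34 in cells with at least 200 genes and -0.081 as a mean over cells. The share difference of -0.70 points was 3.46 in cells with at least 200 genes, 0.96 with lymphocytes out of the denominator and -1.57 to -0.34 without 1 set. With at least 3 marker UMIs that difference was -1.32, with stromal UMIs under 1% -1.55 and without cells with immune UMIs -1.59. The receptor ratio of -0.10 lay between -0.21 and 0.07, within its interval but not of 1 sign. The stromal list, 0.51, was -0.39 with stromal UMIs under 1%, a limit that acts on 5 of its genes. Except where a setting changes which genes or cells are counted, the cause was not tested. Fabp4, Cd36, Plvap and Vwf kept their direction under every alternative run for them. No paired analysis was possible because the barcode sets carry no replicate number of the labels and each genotype is 1 mouse.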
